A study of Sus scrofa with 4 samples.

Results

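The miR-181 family was examined in small RNA sequencing of pig vascular stem cells that were induced to become fat cells. Its members were chosen by name: the Sus scrofa hairpin entries called mir-181a, mir-181b, mir-181c and mir-181d, with the trailing number of a hairpin copy dropped. They are 4 of the 189 miRNAs with a read and are carried by 6 hairpins. There were 4 groups with 1 library each (n = 1): SVSC MDI and SVSC, from subcutaneous fat, and IVSC MDI and IVSC, from longissimus dorsi, a long muscle beside the spine. The labels call the cells of all 4 groups adipose-derived vascular stem cells, at passage 1 and grown with 20% serum. SVSC MDI and IVSC MDI received an adipogenic mix 2 days after confluence. It held insulin at 5 mg/l, dexamethasone at 0.25 µM, which acts on the glucocorticoid receptor, and IBMX at 0.5 mM, which raises cyclic AMP. IBMX and dexamethasone were removed after 3 days, growth medium returned at day 6, and the cells were kept for 3 or 4 days more, so that the harvest days of both MDI cultures may differ. All 4 samples carry the same protocol text, and the titles alone mark the MDI groups. The SVSC and IVSC groups have no MDI in their titles and are called undifferentiated here. Fat-derived and muscle-derived cells were plated at different densities. The sources used here do not say whether the cultures come from the same pig.

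miRNAs of the miR-181 family share the seed, the stretch near the 5′ end that selects target mRNAs, and differ at a few other bases. In mammals they are made from 3 clusters. Of these, a pair each encode a miR-181a and a miR-181b hairpin and the third encodes miR-181c and miR-181d. In the mouse, miR-181a is known for tuning T cell receptor signalling in thymocytes and for its rise during myoblast differentiation, and miR-181b for restraining NF-κB signalling in endothelium. In pig preadipocytes miR-181a has been reported to promote fat accumulation and to target tumour necrosis factor. In a gene table of the pig assembly Sscrofa11.1, all 6 hairpins had an entry. MIR181A-1 and MIR181B-1 were neighbours. MIR181A-2 and MIR181B-2 were neighbours within the span of NR6A1, an orphan nuclear receptor gene. MIR181D and MIR181C were neighbours, and the next miRNA gene after MIR181C was MIR23A.

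The libraries held 2573249 miRNA reads in SVSC MDI, 17937121 in SVSC, 14810112 in IVSC MDI and 13252168 in IVSC. Levels are given as CPM, that is, reads scaled to a library of 1000000 miRNA reads. A count of 0 allows up to 3 reads, which correspond to 1.17, 0.167, 0.203 and 0.226 CPM in the same order. Values in parentheses after a level, share or ratio are 95% intervals that cover counting error only. All 5 miRNAs of a perivascular and mesenchymal list, miR-143 and miR-145 among them, were detected in every library, with a summed level of 262057 to 409082 CPM. Of 6 blood and lymphoid miRNAs, 3 (miR-142, miR-155 and miR-451) were in the files, with a summed level of 354 CPM in SVSC MDI, 423 in SVSC, 409 in IVSC MDI and 467 in IVSC. The skeletal muscle list stood at 888, 1853, 1137 and 6275 CPM in the same order, of which miR-206 was 1.55, 2.79, 139.6 and 4874 CPM. The epithelial list had 1 of 5 members in the files, at no more than 3.50 CPM. Endothelial miR-126 stood at 63.7, 52.6, 89.6 and 134 CPM, neuronal miR-9 at 77.3, 22.2, 27.8 and 12.7 CPM and liver miR-122 at 1.94, 24.1, 3.11 and 10.5 CPM. The most abundant miRNA was miR-143 in SVSC MDI (390300 CPM), IVSC MDI (387914 CPM) and IVSC (349986 CPM), and miR-21 in SVSC (440817 CPM). Fewer cells of a type and less RNA per cell cannot be told apart in such bulk libraries.

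The family was a small part of every library. Its 4 members together stood at 488 CPM in SVSC MDI, 288 in SVSC, 404 in IVSC MDI and 194.9 in IVSC, which is 0.0488%, 0.0288%, 0.0404% and 0.0195% of the miRNA reads. miR-181a led in all 4 libraries, with 69.1% (66.5 to 71.7) of the family's reads in SVSC MDI, 65.4% (64.1 to 66.7) in SVSC, 69.0% (67.8 to 70.1) in IVSC MDI and 55.8% (53.9 to 57.8) in IVSC. miR-181b followed with 28.6%, 26.2%, 27.6% and 31.2%. miR-181c took 1.35%, 2.98%, 1.42% and 7.78%, and miR-181d took 0.955%, 5.45%, 1.97% and 5.23%. By all reads on a hairpin, the order of the first pair was the same in every library. By exact reads it was the reverse in each. These numbered 72 for miR-181a and 91 for miR-181b in SVSC MDI, and 330 and 616 in SVSC. In IVSC MDI they numbered 240 and 443, and in IVSC 135 and 383. miR-181c and miR-181d changed places: miR-181c was above miR-181d in IVSC and below it in SVSC with intervals that did not overlap, while in both MDI libraries their intervals overlapped.

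miR-181a stood at 337 CPM (868 reads) in SVSC MDI, 189 CPM (3383 reads) in SVSC, 278 CPM (4121 reads) in IVSC MDI and 109 CPM (1442 reads) in IVSC. It was higher in each MDI library than in the undifferentiated library of the same origin, and it ranked 67, 73, 70 and 95 from the most abundant miRNA down. miR-181b stood at 139.5 CPM (359 reads) in SVSC MDI, 75.4 CPM (1353 reads) in SVSC, 112 CPM (1652 reads) in IVSC MDI and 60.7 CPM (805 reads) in IVSC, the same order of libraries as for miR-181a.

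miR-181c stood at 6.61 CPM (17 reads) in SVSC MDI, 8.59 CPM (154 reads) in SVSC, 5.74 CPM (85 reads) in IVSC MDI and 15.2 CPM (201 reads) in IVSC. IVSC was the highest, and the intervals of both MDI libraries overlapped. miR-181d stood at 4.66 CPM (12 reads) in SVSC MDI, 15.7 CPM (282 reads) in SVSC, 7.97 CPM (118 reads) in IVSC MDI and 10.2 CPM (135 reads) in IVSC. SVSC was the highest, and the intervals of SVSC MDI and IVSC MDI overlapped (2.41 to 8.15 and 6.59 to 9.54). These low counts in SVSC MDI make every ratio of miR-181c and miR-181d with that library wide.

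**Figure D1:**
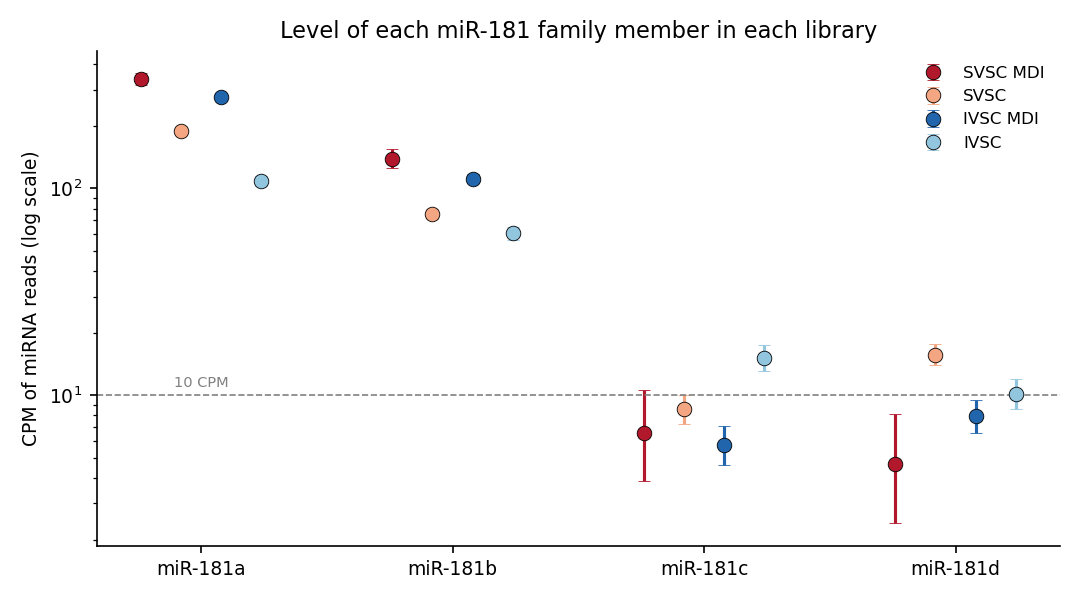
Level of the 4 members in each library, in CPM of miRNA reads on a log axis, 1 library per group, with 95% counting intervals (hidden by the point where narrow) and a dashed line at 10 CPM. miR-181a and miR-181b lie above their undifferentiated libraries with MDI in both origins, and the points of miR-181c and miR-181d lie below them, with overlapping intervals for miR-181c in the fat-derived and miR-181d in the muscle-derived cells.

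The first question was how the family changed with MDI in the muscle-derived cells. miR-181a rose 2.56-fold (2.41 to 2.72) in IVSC MDI over IVSC, and miR-181c fell 2.64-fold (2.04 to 3.45). Here a miRNA is said to have risen or fallen when its ratio was at least 2-fold, its interval excluded 1 and it reached 10 CPM in at least 1 library of the pair. miR-181b had a ratio of 1.84 (1.69 to 2.00) and miR-181d one of 0.782 (0.606 to 1.01), and neither was called. So 1 of 4 members rose and 1 fell, where 40.1% of the 152 miRNAs compared were called, 16.4% higher and 23.7% lower. The median log2 ratio was 0.26 over the 4 members and -0.04 over all miRNAs compared. Of the 152, 14 had a larger ratio than miR-181a, and 17 had a smaller one than miR-181c. Of the skeletal muscle list, 2 of 5 miRNAs fell alongside (miR-133b and miR-206). The list summed to 1137 CPM in IVSC MDI and 6275 CPM in IVSC, and miR-206 stood at 139.6 CPM in IVSC MDI and 4874 CPM in IVSC. The part of muscle cells in these ratios was not tested. With exact reads alone, scaled to the exact reads of the library, the log2 ratio of miR-181a was 0.76 and was not called, and that of miR-181c was -1.84. With scaling to all reads miR-181c was not called (log2 ratio -1.18, below 10 CPM) and miR-181b was called higher (1.10).

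In the fat-derived cells, too, the ratios of miR-181a and miR-181b lay above 1 and those of miR-181c and miR-181d below it. miR-181d fell 3.37-fold (1.90 to 6.60) in SVSC MDI over SVSC, on 12 and 282 reads. miR-181a had a ratio of 1.79 (1.66 to 1.93) and miR-181b one of 1.85 (1.64 to 2.08), and neither reached 2-fold. The count of miR-181a is that of its larger hairpin copy, which was copy 2 in SVSC MDI and copy 1 in the other 3 libraries. With the same copy in both libraries its ratio was 1.67 (1.54 to 1.80) for copy 1 and 2.07 (1.92 to 2.24) for copy 2, so that it was called higher with copy 2 alone. miR-181c had a ratio of 0.769 (0.437 to 1.27) and stayed below 10 CPM in both libraries, so it was not compared. Thus 0 of 3 members compared rose and 1 fell, beside 34.2% and 21.9% of 146 miRNAs (56.2% in either direction). The median log2 ratio was 0.23 over the 4 members and 0.41 over all miRNAs compared. Of the blood and lymphoid list, miR-142 rose alongside, to 19.4 CPM in SVSC MDI against 5.41 CPM in SVSC, while miR-155 had a ratio of 0.800. Of the skeletal muscle list, miR-133a and miR-133b were called higher and miR-1 lower. Of the perivascular list, miR-145, miR-199a and miR-199b were called higher. miR-9 was called higher and miR-122 lower. The part of these cell types in the ratios was not tested. This comparison moves with the scaling: 4 other scalings lowered every log2 ratio by 0.40 to 0.50, which put miR-181a at 1.26-fold and miR-181b at 1.30-fold at the least and left both above 1. With mature reads alone, scaled to the mature reads of the library, miR-181b was called higher (log2 ratio 1.12). Scaled to all miRNA reads, the same mature reads had a log2 ratio of 0.81 and were not called.

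Taken by cluster type, the reads of miR-181a and miR-181b together stood at 477 CPM in SVSC MDI and 264 CPM in SVSC, a ratio of 1.81 (1.69 to 1.92), and at 389.8 CPM in IVSC MDI and 169.6 CPM in IVSC, a ratio of 2.30 (2.19 to 2.41). Those of miR-181c and miR-181d together stood at 11.3 CPM in SVSC MDI and 24.3 CPM in SVSC, a ratio of 0.464 (0.307 to 0.675), and at 13.7 CPM in IVSC MDI and 25.4 CPM in IVSC, a ratio of 0.541 (0.452 to 0.645). The ratio of the first sum was above 1 and that of the second below 1 in both origins under all 5 scalings. Within a library, where no scaling enters, there were 42.3 reads of miR-181a and miR-181b for each read of miR-181c and miR-181d in SVSC MDI and 10.9 in SVSC. In IVSC MDI there were 28.4 and in IVSC 6.69. The log2 change of this quotient with MDI was 1.96 (1.41 to 2.51) in SVSC and 2.09 (1.83 to 2.35) in IVSC, and these intervals overlap. The neighbour of miR-181c, miR-23a, had MDI ratios of 2.44 (2.41 to 2.48) in SVSC and 1.18 (1.17 to 1.19) in IVSC, and miR-27a had 1.69 (1.66 to 1.71) and 1.02 (1.01 to 1.03). miR-24, which shares their cluster in human, had 0.819 (0.795 to 0.842) and 1.14 (1.13 to 1.16). Of these, miR-23a in SVSC alone was called. The next miRNA gene after MIR181A-1 was MIR24-2, a copy of miR-24, so the miR-24 count need not come from the cluster of miR-23a alone.

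**Figure D2:**
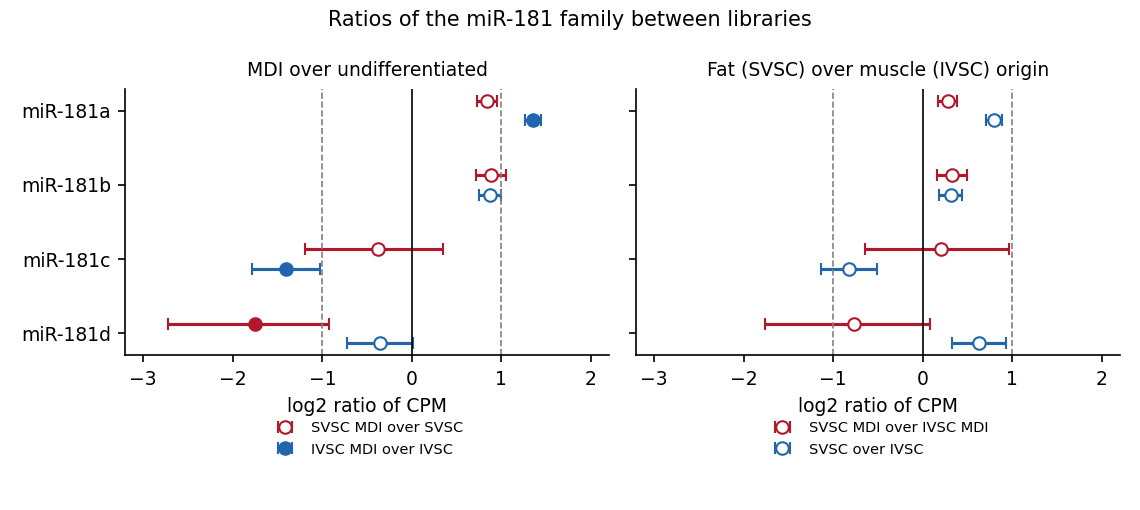
log2 ratios of CPM with 95% counting intervals, for MDI over undifferentiated (left) and fat over muscle origin (right). Filled points were called at 2-fold, dashed lines mark 2-fold, and the called points are miR-181a and miR-181c in IVSC and miR-181d in SVSC.

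The size of the MDI change was then compared between origins, on the difference of log2 ratios (SVSC minus IVSC). It was 0.01 (-0.20 to 0.22) for miR-181b, with an interval on both sides of 0. For miR-181a it was -0.52 (-0.65 to -0.38), with copy 2 in SVSC MDI set against copy 1 in the others. On copy 2 alone its ratios were 2.07 in SVSC and 2.56 in IVSC. For miR-181c it was 1.02 (0.21 to 1.83) and for miR-181d -1.40 (-2.31 to -0.49), with the lower ratio of miR-181c in muscle-derived and that of miR-181d in fat-derived cells. These intervals hold no spread between cultures.

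Origin was compared in each state. In the undifferentiated libraries (SVSC over IVSC), miR-181a had a ratio of 1.73 (1.63 to 1.84), miR-181b 1.24 (1.14 to 1.36), miR-181c 0.566 (0.456 to 0.702) and miR-181d 1.54 (1.25 to 1.91). None of the 4 reached 2-fold, beside 28.4% of 148 miRNAs called (7.43% higher and 20.9% lower). However, miR-181a did so under 3 of 4 other scalings (up to 2.23-fold), and miR-181c with mature reads alone (log2 ratio -1.25). With MDI (SVSC MDI over IVSC MDI), the ratios were 1.21 (1.13 to 1.30) for miR-181a, 1.25 (1.11 to 1.40) for miR-181b, 1.15 (0.641 to 1.95) for miR-181c and 0.585 (0.294 to 1.06) for miR-181d. Here 27.9% of 147 miRNAs were called (17.7% higher and 10.2% lower), and 0 of the 2 members compared. The others, miR-181c and miR-181d, were below 10 CPM in both libraries. Scaling to all reads put the ratios of miR-181a, miR-181b and miR-181c with MDI below 1. The skeletal muscle list summed to 1853 CPM in SVSC and 6275 CPM in IVSC, and to 888 CPM in SVSC MDI and 1137 CPM in IVSC MDI. Most of the IVSC sum was miR-206, at 4874 CPM there and 2.79 CPM in SVSC. In SVSC over IVSC miR-133a, miR-133b and miR-206 were called lower and 0 of the list higher. With MDI, miR-133a was called higher and miR-206 lower. The part of muscle cells in the origin ratios was not tested. The 4 comparisons share libraries in pairs and are not independent of each other.

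All 4 libraries were also fitted together, with MDI and origin as additive terms, so that each origin served as a repeat for the MDI effect. In this edgeR quasi-likelihood fit over 179 miRNAs, no member passed an adjusted p of 0.05 for MDI, where 10.6% of the miRNAs did (6.15% higher and 4.47% lower). The log2 ratios were 0.93 ± 0.63 (SE) for miR-181a with an edgeR adjusted p of 0.382, 0.71 ± 0.69 for miR-181b (0.631), -1.07 ± 1.00 for miR-181c (0.616) and -1.17 ± 1.03 for miR-181d (0.574), the numbers in parentheses being edgeR adjusted p-values. For origin 2.79% of the miRNAs passed (0.559% higher and 2.23% lower) and 0 members did, with the smallest edgeR adjusted p at 0.914 (miR-181a). No member had an unadjusted p under 0.05 either, in edgeR or in DESeq2. The fit had 1 residual degree of freedom, so its p-values rest on a spread taken from all miRNAs.

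The partners of a cluster were set against each other next. The ratio of miR-181a to miR-181b was 2.42 in SVSC MDI, 2.50 in SVSC, 2.49 in IVSC MDI and 1.79 in IVSC. IVSC stood apart from the other 3. With MDI the log2 of this ratio changed by -0.05 (-0.25 to 0.15) in SVSC, the smallest change among 26 clustered miRNA pairs. This holds for all reads on a hairpin. The change was -0.36 (-0.59 to -0.12) with mature reads, 0.56 (0.08 to 1.05) with exact reads and 0.16 (-0.04 to 0.36) with hairpin copy 2 alone. The ratio changed by 0.48 (0.33 to 0.63) in IVSC, where 18 of 28 pairs changed by more. The pairs share a cluster in human or mouse, and the median size of their change, without its sign, was 0.97 in SVSC and 0.65 in IVSC, with miR-30b to miR-30d the most in SVSC (4.71) and miR-206 to miR-133b in IVSC (-3.06). The ratio of miR-181c to miR-181d was 1.42 in SVSC MDI and 0.546 in SVSC, but 0.720 in IVSC MDI and 1.49 in IVSC. It was thus higher with MDI in fat-derived and lower with MDI in muscle-derived cells, by log2 changes of 1.38 (0.27 to 2.48) and -1.05 (-1.56 to -0.54). Between the undifferentiated libraries (SVSC over IVSC) it changed by -1.45 (-1.87 to -1.02), with 5 of 28 pairs changing by more. miR-181c was below 10 CPM in both SVSC MDI (17 reads) and SVSC, and miR-181d was below it in SVSC MDI (12 reads). This pair was therefore not among the 26 pairs of SVSC MDI over SVSC with both miRNAs compared. The smallest change in IVSC was that of miR-30a to miR-30c (-0.02). Between origins, miR-206 to miR-133b changed the most, by -5.09 without and -6.48 with MDI, and the least changes were those of miR-99b to let-7e (0.00) and of miR-195 to miR-497 (-0.02).

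**Figure D3:**
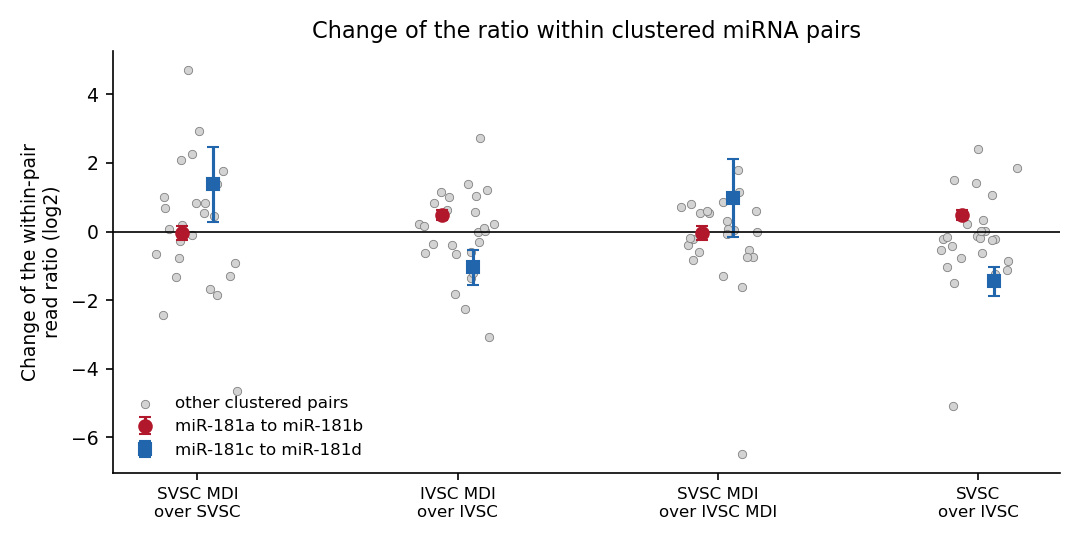
Change of the read ratio within clustered miRNA pairs (log2), for the 4 comparisons. Grey points are the other pairs with both miRNAs compared, and the coloured points carry 95% counting intervals: miR-181a to miR-181b stays near 0 in SVSC MDI over SVSC (-0.05), while miR-181c to miR-181d lies at 1.38 there and at -1.05 in IVSC MDI over IVSC. In SVSC MDI over SVSC and SVSC MDI over IVSC MDI, miR-181c to miR-181d is shown although it did not meet this condition of the grey points.

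The reads of a hairpin were then divided by class. The files separate reads that match the mature miRNA exactly, other reads on the mature miRNA, reads on the star strand and reads on the rest of the hairpin. No member had a star read in any library, and only 9 hairpins of each library did. Whether a star sequence was annotated for the members was not checked, so this 0 does not show that the strand was absent. Reads of a star strand that was not annotated could be counted on the rest of the hairpin. Over the pooled reads of all hairpins except miR-143, the rest of the hairpin held 3.70% in SVSC MDI, 3.20% in SVSC, 2.79% in IVSC MDI and 3.61% in IVSC. Abundant miRNAs weigh most in these pooled shares. They leave out miR-143, the most abundant miRNA in SVSC MDI, IVSC MDI and IVSC. The share with miR-143 is not given here, so these values do not describe whole libraries. miR-181a had 44.8% (41.5 to 48.2) of its reads on the rest of the hairpin in SVSC MDI, 28.0% (26.5 to 29.5) in SVSC, 37.0% (35.5 to 38.5) in IVSC MDI and 43.9% (41.3 to 46.5) in IVSC. These are shares of the larger copy, copy 2 in SVSC MDI and copy 1 in the other 3. Within copy 1 the share was 41.1% in SVSC MDI and 28.0% in SVSC, and within copy 2 it was 44.8% in SVSC MDI and 16.6% in SVSC. In IVSC MDI and IVSC it was 37.0% and 43.9% for copy 1, and 30.2% and 38.0% for copy 2. Within either copy the share was thus higher with MDI in SVSC and lower with MDI in IVSC. For miR-181b it was 17.5% (13.8 to 21.9), 13.0% (11.3 to 14.9), 26.1% (24.0 to 28.3) and 16.0% (13.6 to 18.7). miR-181c had 41.2% (18.4 to 67.1), 31.8%, 20.0% and 20.9% there, and miR-181d had 3 of 12 reads (5.49 to 57.2%), 14.5%, 16.9% and 33.3%, too few reads in SVSC MDI for an order.

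The exact reads of miR-181b did not follow its total. They stood at 35.4 CPM in SVSC MDI and 34.3 CPM in SVSC, a ratio of 1.03 (0.817 to 1.29), and at 29.9 CPM in IVSC MDI and 28.9 CPM in IVSC, a ratio of 1.03 (0.901 to 1.19). The inexact reads on the mature miRNA had ratios of 2.55 (2.16 to 2.99) in SVSC and 2.38 (2.07 to 2.73) in IVSC, and those on the rest of the hairpin 2.50 (1.84 to 3.35) and 2.99 (2.45 to 3.67). The higher miR-181b count with MDI therefore lay in these classes in both origins. Scaled to the exact reads of each library in place of all miRNA reads, the log2 ratio of its exact reads was -0.35 in SVSC and 0.14 in IVSC. Exact reads made up 31.0% (25.7 to 36.6) of the mature reads in SVSC MDI and 52.8% (49.9 to 55.7) in SVSC, and 36.7% (33.9 to 39.5) in IVSC MDI and 57.1% (53.2 to 60.9) in IVSC. Among 91 other miRNAs with at least 100 mature reads in each library, 6 had a larger drop of this share in each origin, and the median change over all 92 was -1.20 percentage points in SVSC and -1.21 in IVSC. Over all hairpins, exact reads were 64.6% of the mature reads in SVSC MDI, 43.3% in SVSC, 53.5% in IVSC MDI and 57.1% in IVSC. The sources used here do not say whether inexact reads differ from the annotated miRNA in length or in bases.

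miR-181a had few exact reads throughout, 15.0% of its mature reads in SVSC MDI, 13.5% in SVSC, 9.24% in IVSC MDI and 16.7% in IVSC. Its exact reads had MDI ratios of 1.52 (1.16 to 1.97) in SVSC and 1.59 (1.28 to 1.98) in IVSC. Its inexact mature reads had ratios of 1.35 (1.21 to 1.50) in SVSC and 3.13 (2.87 to 3.41) in IVSC. miR-181c exact reads stood at 32 in IVSC MDI and 109 in IVSC, a ratio of 0.263 (0.171 to 0.393), below its ratio over all reads. miR-181d exact reads stood at 42 in IVSC MDI and 39 in IVSC, a ratio of 0.964 (0.608 to 1.53). In SVSC MDI these exact reads numbered only 3 for miR-181c and 2 for miR-181d, against 50 and 119 in SVSC.

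**Figure D4:**
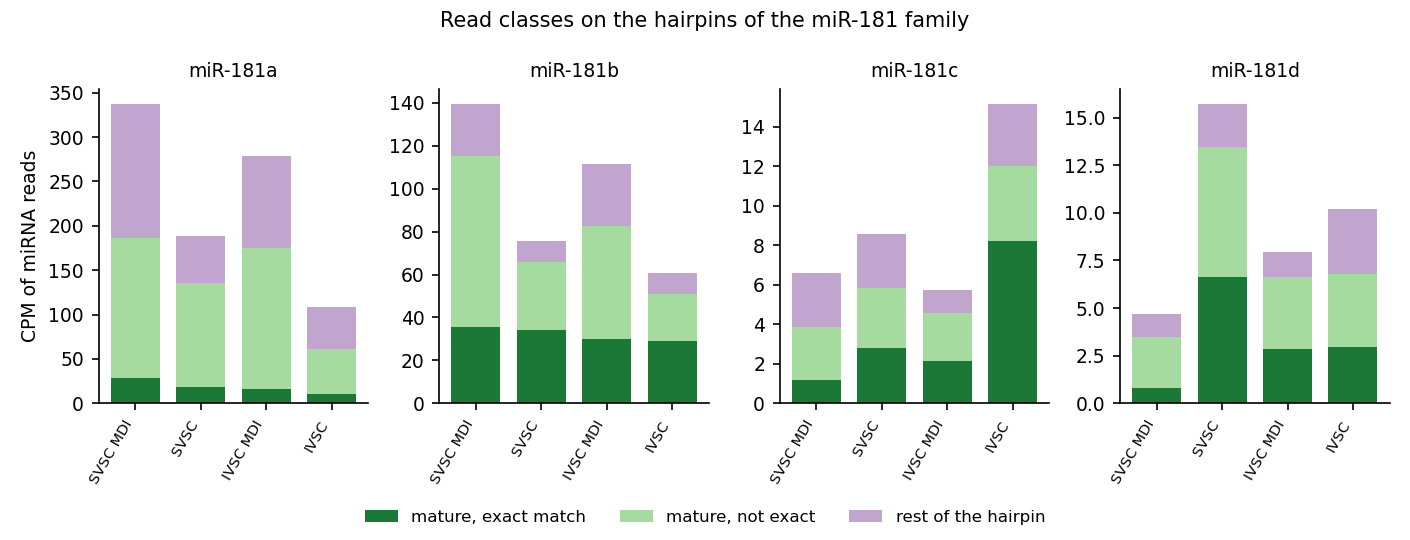
Reads of each member by class, in CPM of miRNA reads, stacked, with a separate axis for each member and 1 library per bar; miR-181a is shown by its larger copy, copy 2 in SVSC MDI and copy 1 in the others. The exact part of miR-181b is nearly level over the libraries (28.9 to 35.4 CPM) while its other classes are higher in SVSC MDI and IVSC MDI.

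miR-181a and miR-181b each have 2 hairpin copies, 1 in each of both clusters. The mature reads of miR-181a could not be divided, since 0 were unique to a copy. Those of miR-181b that were unique to a copy came almost all from miR-181b-2, the copy within NR6A1: 60 of 62 in SVSC MDI (96.8%, 88.8 to 99.6), 137 of 147 in SVSC (93.2%, 87.8 to 96.7), 161 of 174 in IVSC MDI (92.5%, 87.6 to 96.0) and 122 of 127 in IVSC (96.1%, 91.1 to 98.7). No order of libraries shows in these shares. Such reads were 11.7% to 20.4% of the mature reads of miR-181b-2, and the others were not unique to a copy.

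The rest of the hairpin gave another picture, with more reads on the first copy as a rule. miR-181b-1 had 35.8 CPM there in SVSC MDI, 15.0 in SVSC, 35.0 in IVSC MDI and 16.2 in IVSC, and miR-181b-2 had 24.5, 9.81, 29.1 and 9.73 CPM. miR-181a-1 had 129 CPM in SVSC MDI, 52.8 in SVSC, 103 in IVSC MDI and 47.8 in IVSC. miR-181a-2 had 151, 26.98, 75.8 and 37.2 CPM and was above miR-181a-1 in SVSC MDI alone. With MDI, reads on the rest of miR-181a-2 were 5.60-fold higher (4.89 to 6.42) in SVSC and those of miR-181a-1 2.45-fold (2.16 to 2.78), while in IVSC the ratios were 2.04 (1.83 to 2.27) and 2.15 (1.96 to 2.37). For miR-181b-2 and miR-181b-1 they were 2.50 (1.84 to 3.35) and 2.38 (1.86 to 3.03) in SVSC, and 2.99 (2.45 to 3.67) and 2.16 (1.84 to 2.54) in IVSC. How many of these reads fit both copies is not given, so the difference between copies rests on counts that may overlap. Whether they include reads of the star strand was not checked.

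**Figure D5:**
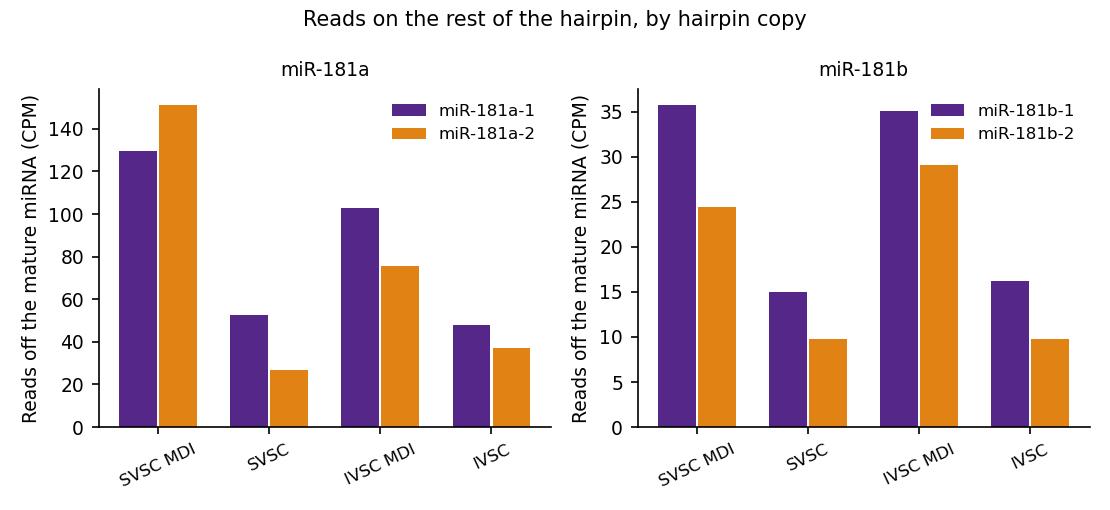
Reads on the rest of the hairpin for each copy of miR-181a and miR-181b, in CPM of miRNA reads, 1 library per group. The first copy is the higher one in every library except for miR-181a in SVSC MDI (129 and 151 CPM).

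The miRNAs with the most similar course over the 4 libraries were sought among 109 others at 100 CPM or more in at least 1 library, by the Euclidean distance of log2 CPM centred on the mean of the 4. For miR-181a the nearest was its cluster partner miR-181b (distance 0.404), then miR-191 (0.453) and miR-23b (0.481). For miR-181b they were miR-125b (0.263), miR-146a (0.294) and miR-365 (0.304), with miR-181a in place 6. A distance over 4 libraries is a description. Of 7 miRNAs reported to promote adipogenesis, mostly in mouse and human, 6 rose in SVSC MDI over SVSC and 0 fell. The 6 were miR-30a, miR-30b, miR-30c, miR-146b, miR-148a and miR-210. In IVSC MDI over IVSC 5 rose and miR-378 fell. Among all miRNAs compared, 34.2% were called higher in SVSC MDI over SVSC and 16.4% in IVSC MDI over IVSC. The list is not complete and was chosen with earlier results of these data known, so its counts are no test of adipogenesis. The members of the miR-181 family were not put on that list, although miR-181a has the report in pig preadipocytes given above.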

How the data were processed

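Total RNA of about 10 µg was size-selected to 16 to 35 nt, amplified for 12 cycles and read for 36 cycles, per the labels' protocols. The deposited values are read counts per feature; per the file headers the features come from 4 resources, of which the Sus scrofa hairpins were used. A mouse build, mm9, is named without a role, per the submitters' processing notes. For the aligner and its mismatches: not given in the sources used here. Unnamed entries (3 in the SVSC file, 1 in SVSC MDI) and damaged Rfam tRNA entries of SVSC were left out. The unnamed SVSC MDI entry had a value of 4071523, beside 5166494 reads over the named entries of that library. Scaling to all reads used named entries only, and ratios with the unnamed entry included were not computed.

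The measure was all reads on a hairpin, with copies counted once: the largest copy of each library plus mature reads unique to the others, so the copy can differ between libraries. Ratios of CPM carry exact conditional (Clopper-Pearson) 95% intervals, shares exact binomial ones, and quotients of ratios log-normal ones (SciPy 1.17.1, pandas 2.3.3, NumPy 2.4.6, Python 3.11.15). The reads passed PCR without molecular identifiers and are not independent, so all intervals and floors cover counting error only. With 1 library per group no pair of libraries has a p-value. The additive fit used edgeR 4.0.16 (filterByExpr, TMM, quasi-likelihood F test, Benjamini-Hochberg at 0.05 over all miRNAs) in R 4.3.3, with DESeq2 1.42.0 as the other tool. Its SE was derived from the log2 ratio and the F statistic, and its spread was taken from all miRNAs together (infinite prior degrees of freedom). Intervals and fit were run on simulated data, with counting error only for the intervals. For the fit the simulated spread was below the common dispersion of 0.196 found here. These runs therefore do not show how either performs at the spread of these data. Named miRNAs are the members, the 3 nearest courses of members at 100 CPM, and the clustered pairs with the largest and smallest change. miR-23a and miR-27a were named for their position, miR-206 as a list member. The members and all lists were chosen with earlier results of these data known. Alternatives were 4 scalings (TMM, DESeq2 size factors, all reads, without miR-21), mature or exact reads, other treatment of copies (copy 1 or copy 2 alone was added after seeing the data), other minima, 1.5-fold, and other fits.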

Additional observations from a re-analysis of the deposited data

Results flagged for a closer look

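miR-181c had an SVSC over IVSC ratio above 1 with MDI and below 1 without it, log2 ratios of 0.20 in the MDI libraries and -0.82 in the undifferentiated ones. The difference of these log2 ratios was 1.02 (0.21 to 1.83, counting error only). The ratio with MDI, 1.15 (0.641 to 1.95), has an interval that includes 1, and its log2 value was below 0 with scaling to all reads (-0.32), mature reads (-0.21) and exact reads (-1.20), so the switch of direction does not hold under these. miR-181d did the opposite, with log2 ratios of -0.77 in the MDI libraries and 0.63 in the undifferentiated ones and a difference of -1.40 (-2.31 to -0.49). Its ratio with MDI, 0.585 (0.294 to 1.06), also has an interval that includes 1. Neither difference was tested between cultures, since each group is 1 library, and both rest on 17 and 12 reads in SVSC MDI.

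Rfam entries of the mir-181 family, from other species and outside the values above, also held reads. The largest entry had 1 read in SVSC MDI, 23 in SVSC, 7 in IVSC MDI and 9 in IVSC, above 3 reads in the last 3 libraries. Many of these entries share their reads.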

How the results depend on the processing

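Of the members' log2 ratios between pairs of libraries, 19 became calls, 4 lost theirs, 10 reversed and the others kept direction and call; in the additive fit 47 kept both and 1 reversed. Where no construction is named, the cause was not tested.

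In IVSC MDI over IVSC, 2 members were called, and 3 at 1.5-fold. Exact reads gave 1 (miR-181c lower), and a minimum of 100 CPM gave 1 (miR-181a higher). Scaling to all reads gave 2, with miR-181b in place of miR-181c. In SVSC MDI over SVSC, 1 was called, but 3 at 1.5-fold and 0 at 100 CPM, where fewer miRNAs are compared. Mature reads scaled to mature reads gave 2, miR-181b higher and miR-181d lower. Over all miRNA reads, the mature reads of miR-181b were not called (log2 ratio 0.81). Exact reads gave another 2, miR-181c and miR-181d lower, on 3 and 2 exact reads in SVSC MDI. In SVSC over IVSC, 0 were called, but miR-181a was called higher with TMM, DESeq2 size factors or scaling without miR-21. Mature reads gave miR-181c lower. Exact reads or 1.5-fold gave 3, with miR-181a and miR-181d higher and miR-181c lower. Of alternatives chosen after seeing the data, mature reads over all miRNA reads gave 2 there, and hairpin copy 2 alone gave 2 in SVSC MDI over SVSC, where it added miR-181a.

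The log2 ratio of miR-181d in IVSC MDI over IVSC was 0.030 with mature and 0.035 with exact reads, and that of miR-181b in SVSC MDI over SVSC was -0.35 with exact reads scaled to exact reads. In SVSC MDI over IVSC MDI, scaling to all reads gave -0.24 for miR-181a, -0.20 for miR-181b and -0.32 for miR-181c. There miR-181c had -0.21 with mature reads, -0.24 with mature reads over all miRNA reads and -1.20 with exact reads, and miR-181b -0.067 with exact reads. In the additive fit without scaling beyond library size, miR-181d had -0.035 for origin.

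The log2 change of miR-181a to miR-181b with mature reads was 0.83 in IVSC MDI over IVSC, -0.36 in SVSC MDI over SVSC, 0.79 in SVSC over IVSC and -0.40 in SVSC MDI over IVSC MDI. With hairpin copy 2 alone it was 0.16 in SVSC MDI over SVSC. With exact reads it was 0.56 in SVSC MDI over SVSC and 0.55 in SVSC MDI over IVSC MDI. That of miR-181c to miR-181d with exact reads was -1.88 in IVSC MDI over IVSC and -2.73 in SVSC over IVSC, where mature reads gave -2.02. Summing both copies gave mature shares for miR-181a of 77.3% in SVSC, 66.3% in IVSC MDI and 58.9% in IVSC, and for miR-181b of 77.4% in SVSC MDI, 83.2% in SVSC, 70.5% in IVSC MDI and 78.1% in IVSC.

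The additive fit called 0 members for MDI and for origin under all 6 alternatives, with the smallest adjusted p at 0.273 for MDI and 0.555 for origin. Over all miRNAs it called 19 of 179 for MDI in edgeR, 37 of 170 in DESeq2 and 31 of 158 with mature reads, and 5 for origin in edgeR and 10 in DESeq2. No paired analysis was possible, since each group is 1 library and the sources used here do not say which cultures share a pig. The additive fit takes origin as a term, which is not a pairing by animal. Leaving out a library leaves that fit no residual degree of freedom. With 1 library per group the spread between cultures is unmeasured, and 17 and 12 reads in SVSC MDI widen the counting intervals of miR-181c and miR-181d.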
